A study of Mus musculus with 24 samples.

Results

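From a deposited table of 53715 genes, the 8 followed here encode S100 proteins and were taken by name: *S100a1*, *S100a4*, *S100a6*, *S100a8*, *S100a9*, *S100a10*, *S100a11* and *S100a13*. They were measured in 24 RNA-seq libraries of monocytes sorted from mouse peripheral blood (PB), in 6 groups of 4 libraries. Wild type (wt) mice were compared with N2ΔMy mice, in which Cre expressed from the *Lyz2* locus deletes floxed *Notch2* in myeloid cells. Both genotypes were on the C57BL/6 background, 8 to 10 weeks old, and their cells were sorted on GFP made from the *Cx3cr1* locus. The imiquimod (IMQ) groups had 50 mg of Aldara, a cream with 5% of this TLR7 agonist, put on the skin each day for 4 to 5 days, and the Sham groups had Vaseline. On day 5, lineage-negative CD11b+GFP+CD115+ cells were split into Ly6Chi cells, the inflammatory monocytes, and Ly6Clo cells, the gate that holds the patrolling monocytes. The study reports raised macrophage genes in cells of this gate from N2ΔMy mice. The groups were wt Ly6Chi Sham, N2ΔMy Ly6Chi Sham, wt Ly6Chi IMQ, N2ΔMy Ly6Chi IMQ, wt Ly6Clo IMQ and N2ΔMy Ly6Clo IMQ. Ly6Clo cells after Sham treatment were not analysed here.

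S100 proteins are small proteins with paired EF-hand motifs that mostly bind calcium and then dock onto target proteins, and most of them act as dimers. In myeloid cells S100A8 and S100A9 form calprotectin, which is stored in the cytosol, sequesters metal ions and, once released, signals through TLR4 and RAGE. S100A10, S100A11 and S100A6 are best known as partners of annexins at membranes.

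All 8 genes lie on chromosome 3 (GRCm38), in a pair of clusters. The first held *S100a1*, *S100a13*, *S100a4*, *S100a6*, *S100a8* and *S100a9* within 184.7 kb (chr3:90511034-90695721), and the second held *S100a11* and *S100a10* within 44.2 kb (chr3:93520488-93564643). The exons of *S100a4* share 302 of their 584 bases (51.7%) with another annotated gene on the same strand, RP23-326D6.5, which was listed at 0 in every library. How reads in the shared bases were assigned is not given in the sources used here. The other 8 S100 genes on the list (*S100a3*, *S100a5*, *S100a7a*, *S100a14*, *S100a16*, *S100b*, *S100g* and *S100z*) summed to at most 16 in any library, and *S100a16* and *S100z* were at 0 throughout.

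Values are read counts that the authors normalized between libraries and rounded. Inferred depth was 9521700 to 19760126 reads per library. *Notch2* lay between 7240 and 11518 in the N2ΔMy libraries and between 12656 and 20005 in the wt libraries, so its transcript was lower but still present. The markers of the sorted subsets followed the labels: 6 of 6 Ly6Clo genes such as *Nr4a1* and *Treml4* were called higher and 4 of 4 Ly6Chi genes (*Ccr2*, *Ly6c2*, *Vcan* and *Fn1*) were called lower in Ly6Clo than in Ly6Chi cells of either genotype. Of all genes 11.9% (wt) and 9.01% (N2ΔMy) were called higher and 12.7% and 8.38% lower in these comparisons. Library numbers in the labels fall into 2 series, the first with replicates 1 and 2 and the second with replicates 3 and 4 of every group. Comparisons used limma on log2(value + 1). A gene was called where its adjusted p did not exceed 0.05 and its log2 fold change reached 0.6 in either direction. The 11230 genes tested were those that reached 50 in any library. The study's design gives 4 biological replicates per group, and p-values measure the spread between these libraries. All 8 S100 genes passed this filter, but *S100a8* and *S100a9* passed it through IMQ libraries alone.

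The S100 genes differed widely in level. Per kb of exon, *S100a6* was the highest in wt Ly6Chi Sham cells at 2882 ± 353 (SD, n = 4), which ranked 124 among the genes tested. *S100a11* followed at 1819 ± 432, *S100a10* at 1526 ± 141, *S100a4* at 1451 ± 1204, *S100a13* at 483 ± 58.5 and *S100a1* at 236 ± 68.7. Summed per kb over the 8 genes, the level was 8403 ± 1995 in wt Ly6Chi Sham, 18197 ± 7636 in wt Ly6Chi IMQ and 4715 ± 1195 in wt Ly6Clo IMQ cells. The make-up of this sum shifted between groups. *S100a6* held 35.0 ± 3.84% of it in wt Ly6Chi Sham cells and 24.6 ± 0.838% in wt Ly6Clo IMQ cells, where *S100a11* held the largest share, 41.9 ± 5.85%. *S100a10* held 8.39 ± 1.58% in wt Ly6Clo IMQ cells with a range of 6.55 to 10.2%, and between 12.6 and 20.6% in N2ΔMy Ly6Clo IMQ cells, without overlap.

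**Figure D1:**
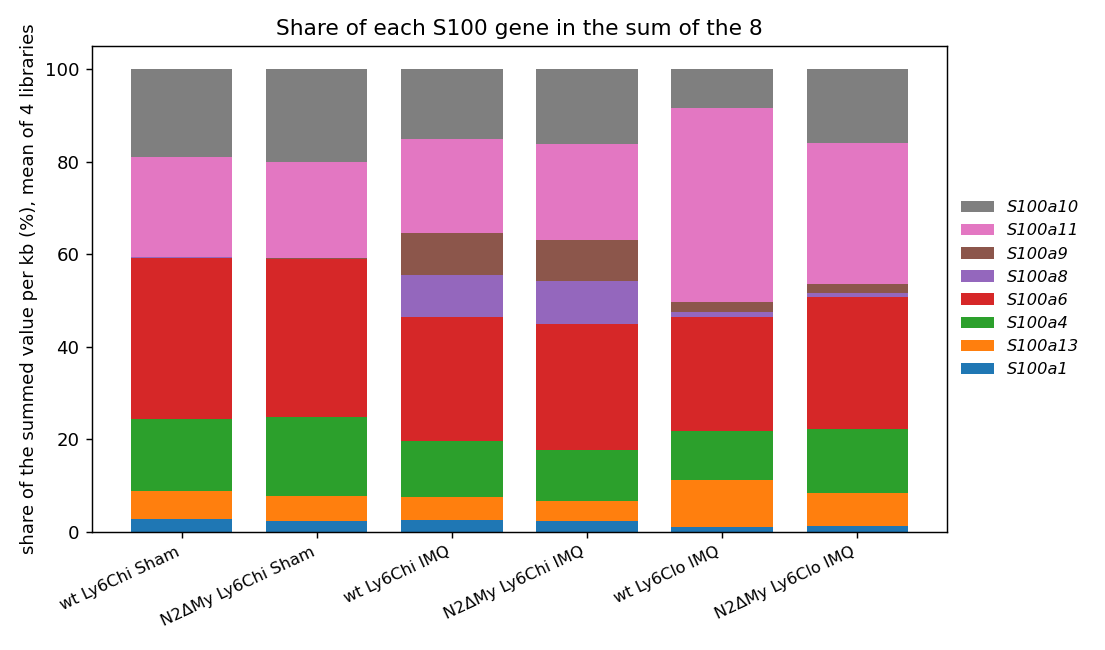
Stacked bars give the mean share (%) of each S100 gene in the summed value per kb of the 8 genes, for the 6 groups of 4 libraries. *S100a8* and *S100a9* take up a visible part in both Ly6Chi IMQ groups (9.02% and 8.95% in wt) and *S100a11* the largest part in wt Ly6Clo IMQ cells (41.9%).

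Over the 6 groups, 7 of 8 genes had an adjusted p no higher than 0.01 in the F-test, as did 43.0% of all genes, and *S100a4* did not (limma adjusted p = 0.289). With the replicate number as a block, 8 of 8 passed, against 57.1% of all genes. Both counts include *S100a8* and *S100a9*, which the filter favoured, since they passed it through IMQ libraries alone. With no filter on low values the F-test had 7 of 8, against 16.7% of all genes. Order along the groups was shared in part: each of the 8 genes had its highest mean in N2ΔMy Ly6Chi IMQ cells and its second highest in wt Ly6Chi IMQ cells, and the libraries of these neighbours overlapped for 7 of 8 genes, *S100a10* being the exception. The lowest mean fell in wt Ly6Clo IMQ cells for *S100a1*, *S100a13*, *S100a4*, *S100a6* and *S100a10*, and in wt Ly6Chi Sham cells for *S100a8*, *S100a9* and *S100a11*.

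**Figure D2:**
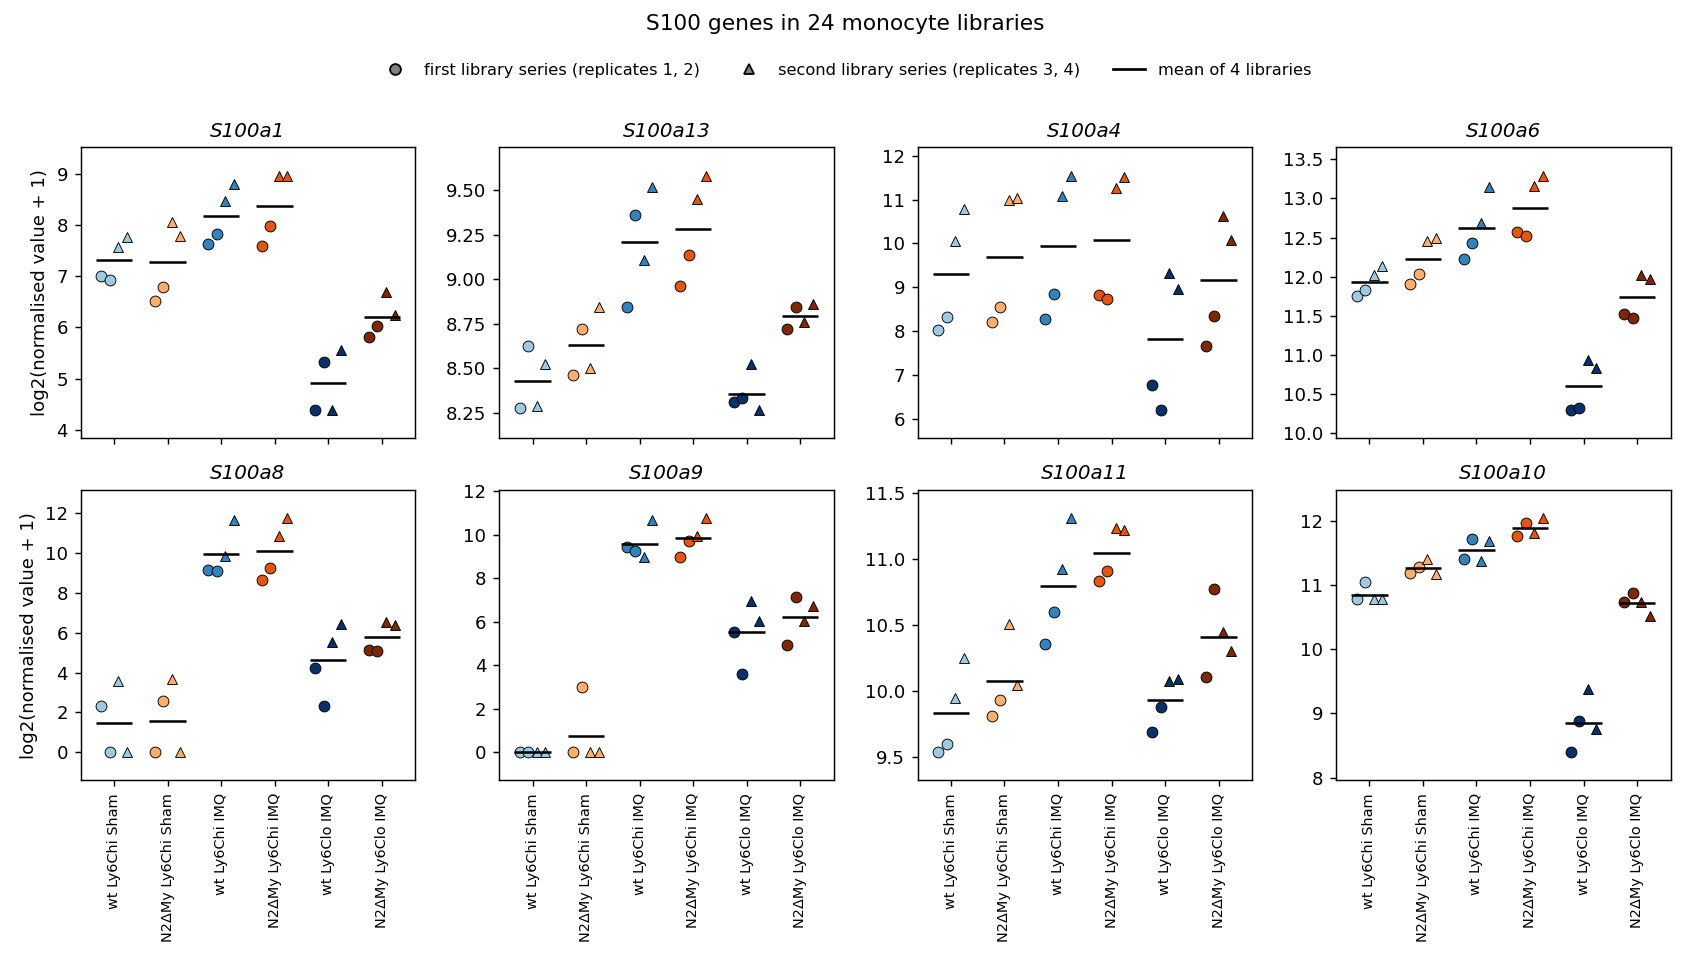
Each panel gives log2(normalised value + 1) of 1 S100 gene in the 24 libraries, with circles for the first and triangles for the second library series and a line at the mean of 4 libraries. *S100a8* and *S100a9* are at or near 0 in the Sham groups, *S100a10* separates wt from N2ΔMy Ly6Clo cells, and *S100a4* separates by library series within every group.

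The first question was how IMQ treatment changed Ly6Chi cells. The calprotectin genes moved furthest. In wt Ly6Chi cells *S100a8* was 4, 0, 11 and 0 in the Sham libraries (replicates 1 to 4) and 561, 545, 930 and 3257 in the IMQ libraries. *S100a9* was 0 in all 4 Sham libraries and 685, 617, 499 and 1651 after IMQ. The groups did not overlap for either gene. N2ΔMy Ly6Chi cells gave the same picture, with *S100a8* at 0, 5, 12 and 0 against 402, 613, 1819 and 3443, and *S100a9* at 0, 7, 0 and 0 against 505, 830, 996 and 1739. Since both genes passed the filter only where they were high, they were also tested among all genes with no filter. They were called higher there too, with limma adjusted p = 0.0118 (*S100a8*) and 9.58e-04 (*S100a9*) in wt and 0.0137 and 0.00426 in N2ΔMy, against 1.48e-04, 1.21e-06, 3.20e-04 and 5.92e-05 with the filter. The exact permutation test over 4 against 4 libraries gave its smallest possible p of 0.0286 for both genes in either genotype (two-sided). No fold is given for *S100a9* in wt, where Sham is listed at 0. For *S100a8* in wt the log2 difference depended on the pseudocount, with 8.46 ± 0.84 (SE) at 1, 10.22 at 0.1 and 6.25 at 10. The calls held without any 1 library.

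After IMQ the calprotectin genes ranked 231 (*S100a8*) and 270 (*S100a9*) per kb among the genes tested in wt Ly6Chi cells, from 10770 and 11210 in Sham. Their ratio per kb within a library differed by library series. In the 8 Ly6Chi IMQ libraries *S100a8* to *S100a9* was 0.556 to 0.664 in the first series and 1.37 to 1.49 in the second.

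Promoter sequences of the pair are shown because these genes went from at or near 0 to high together. They are the RefSeq windows (GRCm38.p6) from 250 bases before to 50 after the gene start, written in the direction of transcription. Capitals mark a match to 1 of 4 motifs searched on both strands: TTGCGCAA (a C/EBP palindrome), TGACTCA (AP-1), GAGGAAGT (a PU.1 type ETS site) and CCAAT.
S100a8, chr3:90668821-90669120, plus strand: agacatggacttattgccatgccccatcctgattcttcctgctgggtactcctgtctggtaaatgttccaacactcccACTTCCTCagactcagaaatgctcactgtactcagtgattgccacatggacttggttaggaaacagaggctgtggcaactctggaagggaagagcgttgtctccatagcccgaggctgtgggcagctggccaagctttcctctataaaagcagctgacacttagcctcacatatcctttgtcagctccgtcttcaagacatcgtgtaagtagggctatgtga
S100a9, chr3:90695672-90695971, minus strand: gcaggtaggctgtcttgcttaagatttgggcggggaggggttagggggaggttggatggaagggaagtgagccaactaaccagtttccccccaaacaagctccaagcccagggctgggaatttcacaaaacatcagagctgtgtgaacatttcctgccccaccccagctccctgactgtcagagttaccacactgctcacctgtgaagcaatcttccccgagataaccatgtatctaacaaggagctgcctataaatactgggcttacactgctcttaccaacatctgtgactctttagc
The *S100a8* window held the ETS motif on the reverse strand, 172 to 165 bases before the start, as 3.20% of all 32851 promoters held that motif on either strand. The *S100a9* window held none of the 4. Among the other members with an entry, *S100a11* had TGACTCA on the reverse strand at 136 and at 38 bases before its start (5.20% of promoters hold it), *S100a6* had CCAAT at 228 bases (37.4%) and *S100a4* had the ETS motif at 17 bases after the start. TTGCGCAA was in 0.183% of promoters and in none of the 7 members matched, and *S100a10* was not matched.

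*S100a8* and *S100a9* are also neutrophil genes, so the neutrophil list was read beside them. Of its 18 genes 9 passed the filter, 4 of them (*Ltf*, *Lcn2*, *Mmp9* and *Wfdc21*) through IMQ libraries alone. Of the other 5, *Prtn3* and *Mmp8* were called higher after IMQ in either genotype (4.43% of all genes in wt and 4.15% in N2ΔMy). The 4 that passed through IMQ libraries alone were read with no filter, a choice made after seeing the data, and *Lcn2* and *Wfdc21* were called higher there in wt (adjusted p = 0.00403 and 0.00181) and in N2ΔMy (adjusted p = 0.00339 and 2.40e-04). *Ltf* was called in wt alone (adjusted p = 0.0139, and 0.0506 in N2ΔMy), and *Mmp9* in neither (adjusted p = 0.578 and 0.0887). With no filter 2.78% of all genes in wt and 2.4% in N2ΔMy were called, higher or lower. The list summed to between 7558 and 8468 in wt Ly6Chi Sham, 9056 and 12906 in wt Ly6Chi IMQ, 7349 and 7722 in N2ΔMy Ly6Chi Sham and 10926 and 12557 in N2ΔMy Ly6Chi IMQ libraries. *Lcn2*, lipocalin-2, went from 3 to 18 in wt Sham to 1151 to 2861 after IMQ, and *Wfdc21* was 0 in every wt Sham library and between 346 and 1163 after IMQ. In the Ly6Chi IMQ libraries *Csf3r* was 3783 to 4862, *Mmp8* 1936 to 3660 and *Padi4* 1029 to 1498. Some other genes of the list were at or near 0. *Ly6g* was 0 in all 16 IMQ libraries, *Camp* was at most 8, *Ngp* at most 8 and *Retnlg* at most 4 in the Ly6Chi IMQ libraries. *Cxcr2*, the neutrophil chemokine receptor, was at most 19 there, and the primary granule gene *Elane*, below the filter and so not tested, was at most 3 in the Ly6Chi Sham and between 8 and 28 in the Ly6Chi IMQ libraries. The 4 keratinocyte genes summed to at most 12 in any library. The dendritic cell list went the other way after IMQ, with sums of 483 to 706 in wt Ly6Chi Sham against 250 to 434 in IMQ and of 545 to 897 against 287 to 406 in N2ΔMy libraries, without overlap. Of its 3 tested genes 1, *Flt3*, was called lower in either genotype (background 5.07% and 4.55%). Of the platelet list 1 of 3 tested genes, *Ppbp*, was called higher in N2ΔMy (4.15% of all genes). In bulk samples, fewer cells of a type and less RNA per cell cannot be told apart. The share of the *S100a8* and *S100a9* values that came from other cells was not tested.

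**Figure D3:**
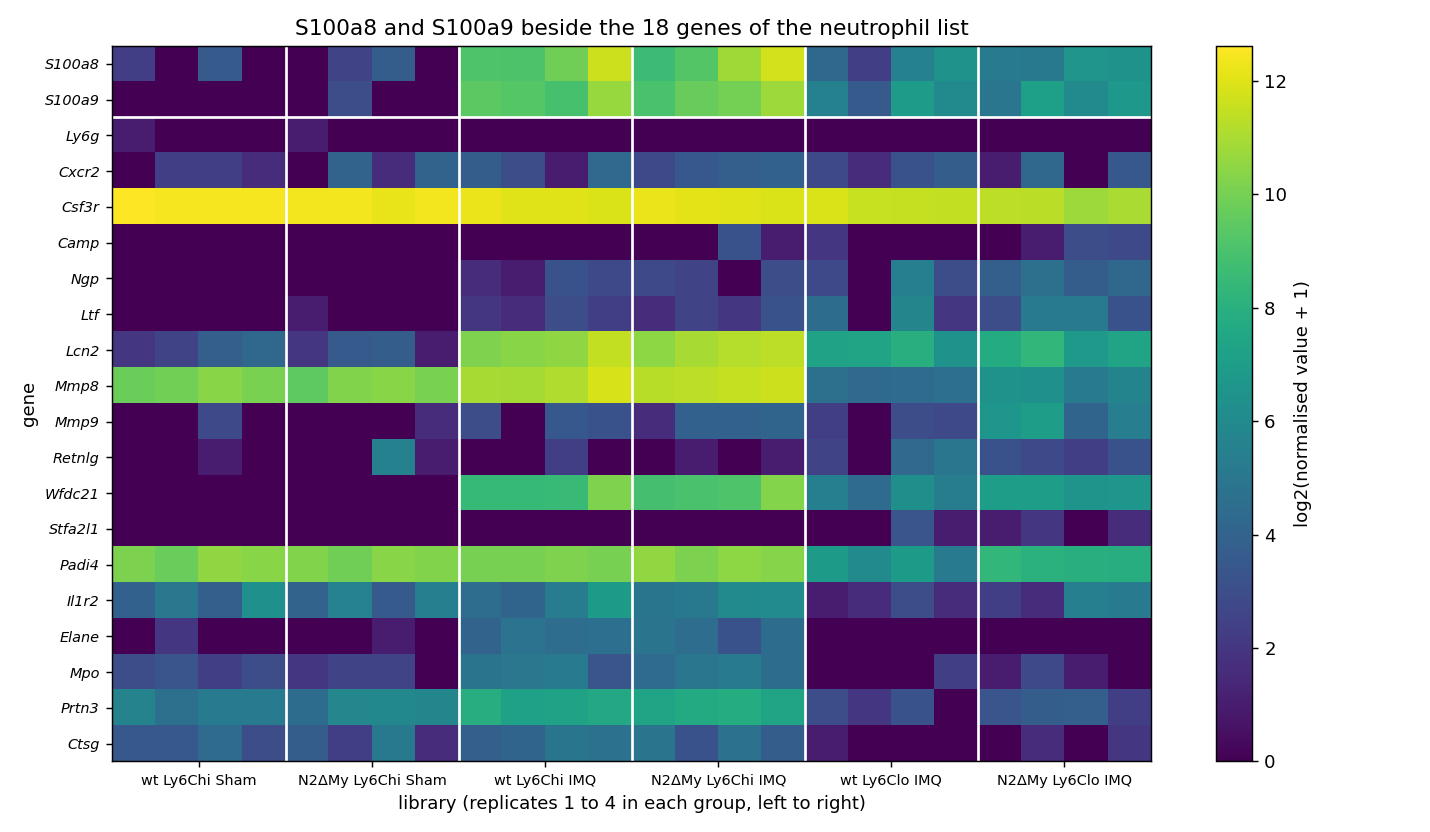
The heat map gives log2(normalised value + 1) of *S100a8*, *S100a9* and the 18 genes of the neutrophil list (rows) in the 24 libraries (columns, 4 per group). *Lcn2* and *Wfdc21* follow the calprotectin genes across groups, while *Ly6g* is at 0 or 1 in every library and *Csf3r*, which monocytes also express, is high throughout.

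Differences of the other S100 genes were much smaller, and not all of them passed the test. *S100a11*, an annexin A1 partner, was 742, 773, 986 and 1218 in wt Sham and 1312, 1555, 1944 and 2540 in wt IMQ libraries, without overlap (log2 fold change 0.97 ± 0.21 SE, limma adjusted p = 0.0107). In N2ΔMy it went from 897, 979, 1455 and 1058 to 1824, 1921, 2412 and 2381 (0.97 ± 0.16, adjusted p = 0.00261). *S100a10*, the partner of annexin A2, was 1768, 2106, 1757 and 1765 in wt Sham and 2707, 3356, 2658 and 3306 in wt IMQ libraries (0.70 ± 0.11, adjusted p = 0.0014). The groups did not overlap. In N2ΔMy its log2 fold change was 0.64 ± 0.09 (adjusted p = 0.00119), which fell under the fold threshold without replicate 4 of N2ΔMy Ly6Chi IMQ. *S100a13*, known for the release of FGF1 and IL-1α without a signal peptide, was called in both genotypes at 0.78 ± 0.16 (adjusted p = 0.00696) and 0.65 ± 0.15 (adjusted p = 0.0192). The N2ΔMy call was lost without Sham replicate 1 or 3 or IMQ replicate 3 or 4, and both were lost in the first library series alone. With no filter on low values, which brings in many genes near 0, the wt calls of *S100a11*, *S100a13* and *S100a6* were lost (adjusted p = 0.109, 0.0552 and 0.164), as was the N2ΔMy call of *S100a13* (adjusted p = 0.0991).

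*S100a6*, calcyclin, was 3456, 3632, 4170 and 4501 in wt Sham and 4786, 5507, 6582 and 9047 in wt IMQ libraries (0.68 ± 0.18, adjusted p = 0.0234). These groups did not overlap, but the call was lost without Sham replicate 1 or 2 or IMQ replicate 3 or 4, in the first library series alone (log2 0.53, under the fold threshold) and with no trend in the fit (adjusted p = 0.0627). In N2ΔMy *S100a6* had 0.66 ± 0.20 (adjusted p = 0.0571, and 5.71e-04 with the replicate block). *S100a1*, best studied in heart muscle, missed the call in wt (0.86 ± 0.28, adjusted p = 0.0661) and in N2ΔMy (1.09 ± 0.41, adjusted p = 0.117), and with the block it was called in both (adjusted p = 0.00102 and 7.82e-04).

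With *S100a8* and *S100a9* set aside, as they passed the filter through IMQ libraries alone, 4 of the other 6 S100 genes were called higher after IMQ in wt Ly6Chi cells, where 4.43% of genes tested were called in this direction, and 3 of 6 in N2ΔMy, where 4.15% were. With the replicate block the counts were 6 of 6 (background 5.82%) and 5 of 6 (background 4.76%). The median log2 fold change of these 6 genes was 0.74 in wt and 0.66 in N2ΔMy cells, while that of all genes tested was 0.01. With *S100a8* and *S100a9* the counts called were 6 of 8 and 5 of 8. The difference between the genotypes in this response was itself tested. In the interaction of genotype and treatment 0 of 8 S100 genes and 0 of 11230 genes (0%) were called by limma, and at an unadjusted p under 0.05 it had 0 S100 genes and 177 genes. Both comparisons use their own 8 libraries.

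*S100a4* stood apart through its library series. *S100a4*, which binds non-muscle myosin and marks motile cells, was 261, 321, 1056 and 1752 in wt Sham and 310, 457, 2174 and 2995 in wt IMQ libraries. Replicates 3 and 4 were above replicates 1 and 2 in every group, by 4.83 to 6.74 times between the series means. Averaged over groups the second series was higher by 2.54 on the log2 scale, a difference that 0.793% of genes equalled in size. The median absolute difference over all genes was 0.18. *S100a8* had 1.54, *S100a1* 0.79, *S100a6* 0.52, *S100a9* 0.38, *S100a11* 0.36, *S100a13* 0.14 and *S100a10* 0.04. Since both series held every group, values of *S100a4* were read within them. In wt Ly6Chi cells IMQ gave a log2 fold change of 0.64 ± 0.79 (adjusted p = 0.655), and 0.64 ± 0.12 with the replicate block (adjusted p = 0.00203), with 0.38 in the first and 0.91 in the second series, called in neither (adjusted p = 0.316 and 0.0574). In N2ΔMy it was 0.39 ± 0.83 (adjusted p = 0.819), under the fold threshold in either fit.

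The second question was how Ly6Clo cells differed from Ly6Chi cells of IMQ-treated mice. These comparisons share their Ly6Chi IMQ libraries with those of the treatment. All 8 S100 genes had lower means in Ly6Clo cells, in both genotypes. In wt cells 7 of 8 were called lower (background 12.7%), and 8 of 8 with the replicate block (background 15.0%). N2ΔMy cells had 6 of 8 called lower (background 8.38%), and 7 of 8 with the block (background 10.2%). The median log2 fold change of the 8 genes was -2.41 in wt and -1.16 in N2ΔMy cells, against -0.01 for all genes tested in either genotype.

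*S100a8* and *S100a9* were again furthest apart. *S100a8* was 18, 4, 45 and 87 in wt Ly6Clo libraries (log2 fold change against wt Ly6Chi -5.30 ± 0.82, adjusted p = 5.03e-04) and 34, 33, 93 and 84 in N2ΔMy Ly6Clo libraries (-4.33 ± 0.61, adjusted p = 4.31e-04). *S100a9* was 45, 11, 122 and 64 and 30, 139, 64 and 105 in these (-4.07 ± 0.61, adjusted p = 4.34e-04, and -3.64 ± 0.46, adjusted p = 1.93e-04). Neither gene overlapped between the subsets. The neutrophil list summed to 3051 to 4255 in wt Ly6Clo and 2377 to 3619 in N2ΔMy Ly6Clo libraries, below the Ly6Chi ranges, a sum that *Csf3r*, *Mmp8* and *Padi4* mostly made up in Ly6Chi cells. Of 9 tested genes 6 were called lower in either genotype (background 12.7% and 8.38%). These counts include *Prtn3* in either genotype and *Il1r2* in wt. Both reached the filter's minimum in Ly6Chi libraries alone, with at most 13 and 42 in Ly6Clo libraries, so the filter favoured their calls. *Lcn2*, *Mmp8*, *Padi4* and *Wfdc21* reached it in both subsets and were called lower in either genotype, and *Csf3r* in N2ΔMy alone. *Mmp9* reached the minimum in N2ΔMy Ly6Clo libraries alone and is given with no test. It was 16 to 131 there and 2 to 16 in N2ΔMy Ly6Chi IMQ libraries. Some genes of the neutrophil list had higher maxima in Ly6Clo IMQ than in Ly6Chi IMQ libraries. *Ngp* was at up to 43 against 8, *Ltf* at up to 53 against 8 and *Retnlg* at up to 30 against 4. The dendritic cell list had 1 of 3 genes called higher (11.9% of all genes) and 1 lower (12.7%) in wt, and 2 higher (9.01%) in N2ΔMy.

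*S100a10* was 2707, 3356, 2658 and 3306 in wt Ly6Chi IMQ and 336, 471, 666 and 431 in wt Ly6Clo IMQ libraries (-2.69 ± 0.18, adjusted p = 1.93e-06). Its N2ΔMy values of 3488, 3976, 3585 and 4209 in Ly6Chi and 1703, 1871, 1698 and 1464 in Ly6Clo libraries differed by -1.18 ± 0.11 (adjusted p = 1.46e-05). *S100a6* fell from a mean of 6480.5 ± 1863 to 1580.0 ± 360.5 in wt (-2.02 ± 0.21, adjusted p = 2.82e-05) and from 7764.5 ± 2119 to 3486 ± 694 in N2ΔMy cells (-1.14 ± 0.20, adjusted p = 0.00168). *S100a1* went from 196, 227, 354 and 444 to 20, 39, 20 and 46 in wt libraries (-3.27 ± 0.35, adjusted p = 4.03e-05) and changed by -2.18 ± 0.33 in N2ΔMy (adjusted p = 6.23e-04). The subsets were separated without overlap for all 3 genes. The share of all genes so separated between the subsets was not counted, so this is no trait particular to them.

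*S100a11* and *S100a13* changed least. *S100a11* had -0.86 ± 0.19 in wt (adjusted p = 0.00405) and -0.64 ± 0.15 in N2ΔMy cells (adjusted p = 0.0099), a call lost without N2ΔMy Ly6Chi IMQ replicate 3 or 4 or N2ΔMy Ly6Clo IMQ replicate 1, in the first library series alone (-0.43, adjusted p = 0.166) and with no filter (adjusted p = 0.0798). *S100a13* had -0.85 ± 0.15 in wt (adjusted p = 0.00127), and in N2ΔMy its -0.49 ± 0.14 was under the fold threshold (adjusted p = 0.0294). *S100a4*, at 108, 73, 638 and 498 in wt Ly6Clo libraries, had -2.12 ± 0.84 (adjusted p = 0.0732), and the block gave the same difference with an SE of 0.16 (adjusted p = 1.69e-07). It was called within the first series (-2.07) and within the second (-2.18). In N2ΔMy cells it had -0.91 ± 0.77 (adjusted p = 0.428, and 0.00109 with the block).

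**Figure D4:**
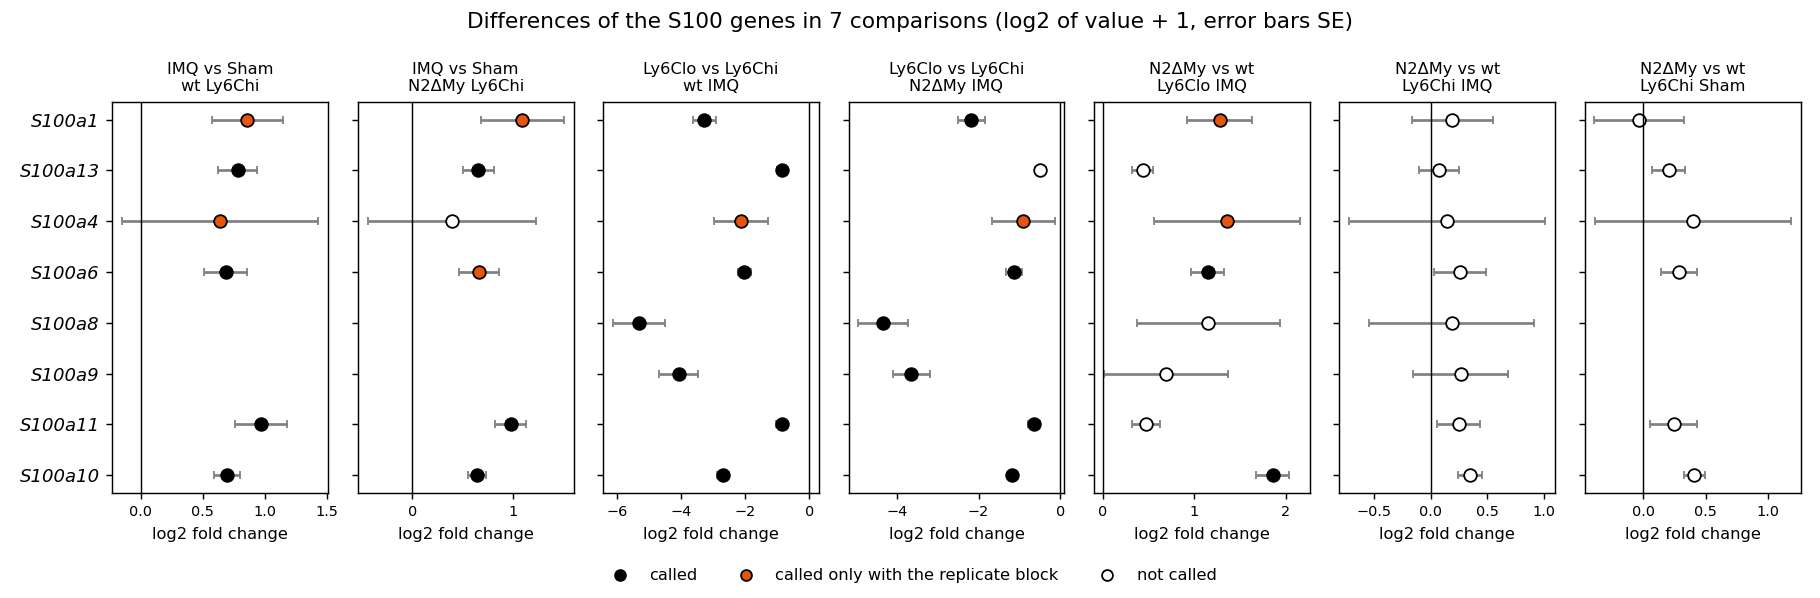
Points give the log2 fold change (of value + 1) of each S100 gene with its SE in 7 comparisons of 4 against 4 libraries. Black points were called, orange points only with the replicate block and white points in neither, and *S100a8* and *S100a9* are left out where a Sham group is at or near 0. All points of the Ly6Clo against Ly6Chi panels lie below 0, and the longest bars belong to *S100a4* and *S100a8*.

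The third question was what the loss of *Notch2* did in Ly6Clo cells of IMQ-treated mice. All 8 S100 genes had higher means in N2ΔMy than in wt Ly6Clo cells, and 2 of 8 were called higher (background 3.12%), *S100a10* and *S100a6*. With the replicate block 4 of 8 were called (background 4.92%), with *S100a4* and *S100a1* added. The 8 genes had a median log2 fold change of 1.15 and all genes tested one of 0.00.

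*S100a10* differed most surely. It was 336, 471, 666 and 431 in wt and 1703, 1871, 1698 and 1464 in N2ΔMy Ly6Clo libraries, 476 ± 139 against 1684 ± 167 (SD, n = 4 each), a 3.63-fold difference (log2 1.86 ± 0.18 SE, limma adjusted p = 2.97e-04). The lowest N2ΔMy library was above the highest wt library. The log2 difference was 2.16 in the first and 1.56 in the second library series, and the call held without any 1 library. *S100a6* was 1261, 1281, 1951 and 1827 in wt and 2937, 2839, 4152 and 4017 in N2ΔMy libraries, also without overlap (2.22-fold, log2 1.15 ± 0.18, adjusted p = 0.004). Its difference was 1.18 and 1.11 within the series. With no filter on low values its call was lost (adjusted p = 0.0767).

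*S100a4* was 108, 73, 638 and 498 in wt and 200, 322, 1577 and 1084 in N2ΔMy Ly6Clo libraries. Each N2ΔMy library was above the wt library of the same number, while the groups as a whole overlapped (1.36 ± 0.80, adjusted p = 0.399, and 4.54e-04 with the block). *S100a1*, at 20, 39, 20 and 46 against 55, 64, 103 and 75, did not overlap (1.28 ± 0.36, adjusted p = 0.0626, and 0.0236 with the block). For *S100a13* the values were 316, 321, 367 and 307 against 420, 458, 433 and 464 (0.44 ± 0.11, adjusted p = 0.0458, under the fold threshold). *S100a11* had 0.47 ± 0.15 (adjusted p = 0.1), *S100a8* 1.16 ± 0.78 (adjusted p = 0.479) and *S100a9* 0.69 ± 0.68 (adjusted p = 0.658), none of them called, with overlap for *S100a8* and *S100a9*.

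Markers of the subsets moved beside these genes. Of these 4 Ly6Chi markers 3 were called higher in N2ΔMy Ly6Clo than in wt Ly6Clo cells (3.12% of all genes). They were *Vcan*, *Fn1* and *Ccr2*, the chemokine receptor of inflammatory monocytes. Of 6 Ly6Clo markers 3 were called lower (1.67% of all genes), *Ace*, *Nr4a1* and *Spn*. *Ccr2* was 241 to 991 in wt and 4393 to 6281 in N2ΔMy Ly6Clo libraries. Their part in the S100 differences was not tested. With *Mmp9* set aside, the neutrophil list had 3 of 8 genes called higher (3.12% of all genes), *Padi4*, *Wfdc21* and *Mmp8*, with sums that overlapped (3051 to 4255 in wt and 2377 to 3619 in N2ΔMy libraries). The dendritic cell list summed to 77 to 488 in wt and 194 to 1387 in N2ΔMy Ly6Clo libraries, which overlapped. The part of these lists was not tested either.

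Ly6Chi cells of the genotypes were much closer. In neither Ly6Chi comparison was any of the 8 S100 genes called by limma, while the share of all genes called was 0.0267% with IMQ and 0.0178% with Sham. At an unadjusted p under 0.05 there was 1 S100 gene of 679 genes after IMQ and 1 of 585 after Sham, *S100a10* both times. Its 4 N2ΔMy libraries all lay above its 4 wt libraries, at 2326, 2479, 2701 and 2298 against 1768, 2106, 1757 and 1765 after Sham (log2 0.41 ± 0.09, adjusted p = 0.699) and 3488, 3976, 3585 and 4209 against 2707, 3356, 2658 and 3306 after IMQ (0.35 ± 0.11, adjusted p = 0.603). Such a full separation upwards was found for 1.42% and 2.13% of genes. With the replicate block the adjusted p of *S100a10* was 0.0281 after IMQ, under the fold threshold, and 0.115 after Sham. The libraries of the genotypes overlapped for the other 7 genes. In same-numbered pairs *S100a6* was higher in N2ΔMy in 4 of 4 after either treatment, and *S100a4* and *S100a13* in 4 of 4 after Sham, and none of these passed the test with the block (adjusted p = 0.139 and 0.178 for *S100a6*, 0.283 for *S100a4* and 0.439 for *S100a13*).

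Whether the genotype difference was larger in Ly6Clo than in Ly6Chi cells of IMQ-treated mice was tested as an interaction. *S100a10* was the 1 of 8 genes called (log2 1.51 ± 0.22, adjusted p = 0.00165, background 0.971% in this direction), and this held without any 1 of the 16 libraries. Within the library series it was 1.86 in the first, where it was called, and 1.17 in the second, where it was not (adjusted p = 0.242). With the replicate block 3 of 8 were called (background 2.15%): *S100a10*, *S100a6* (0.89, adjusted p = 2.69e-04, against 0.314 without the block) and *S100a4* (1.21, adjusted p = 0.0128, against 0.999).

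S100 proteins work through partners, so 19 genes of partners and receptors were read beside them. In N2ΔMy against wt Ly6Clo cells 5 of 19 were called higher (3.12% of all genes) and 0 lower (1.67%): *Anxa3* (log2 2.88 ± 0.33), *Cd36* (1.83 ± 0.37), a receptor for fatty acids carried by calprotectin, *Cd33* (1.77 ± 0.28), which binds S100A9, and *Cd14* (1.42 ± 0.18) and *Ahnak* (1.41 ± 0.16), whose large product binds the complex of S100A10 with annexin A2. After IMQ, wt Ly6Chi cells had 2 of 19 called higher (4.43% of all genes), *Anxa1* (0.72 ± 0.16) and *Anxa2* (0.63 ± 0.11), and 2 lower (5.07%), *Cd36* (-1.24 ± 0.38) and *Anxa3* (-0.70 ± 0.15). N2ΔMy Ly6Chi cells had 3 higher (4.15%), *Cd14* (1.11 ± 0.22), *Anxa1* (0.89 ± 0.18) and *Anxa2* (0.66 ± 0.09), and 0 lower. In Ly6Clo against Ly6Chi cells 7 were lower (12.7% of all genes) and 2 higher (11.9%) in wt, among them *Cd33* (-4.35 ± 0.28), *Cd36* (3.96 ± 0.43), *Ahnak* (-1.90 ± 0.17) and *Anxa3* (-1.65 ± 0.33), and 4 were lower (8.38%) and 4 higher (9.01%) in N2ΔMy, among them *Cd36* (4.38 ± 0.29), *Cd33* (-2.79 ± 0.17), *Plgrkt* (1.14 ± 0.18) and *Anxa4* (-0.99 ± 0.16). *Anxa3*, named for its opposite sign after its values were seen, was called higher in N2ΔMy (0.87 ± 0.14, adjusted p = 0.00106). The interaction of genotype and subset was called for 3 of 19 (0.971% of all genes), *Anxa3* (2.52 ± 0.38, adjusted p = 0.00218), *Cd33* (1.56 ± 0.34, adjusted p = 0.0354) and *Ahnak* (1.25 ± 0.25, adjusted p = 0.0205). *Tlr4* and *Ager*, which encode the calprotectin receptors TLR4 and RAGE, were called in none of the 7 comparisons, with *Ager* between 26 and 96 in all libraries. *Cacybp*, whose product binds S100A6, was called in none either.

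The ratio of *S100a10* to *Anxa2*, the gene of its partner, was lower in Ly6Clo than in Ly6Chi libraries. Per kb the ratio of *S100a10* to *Anxa2* was 0.906 ± 0.068 (SD, n = 4) in wt Ly6Chi Sham, 1.04 ± 0.11 in N2ΔMy Ly6Chi Sham, 0.949 ± 0.041 in wt Ly6Chi IMQ and 1.03 ± 0.04 in N2ΔMy Ly6Chi IMQ cells. It was 0.264 ± 0.079 in wt Ly6Clo IMQ and 0.628 ± 0.075 in N2ΔMy Ly6Clo IMQ cells, and these groups overlapped neither with each other nor with any Ly6Chi group. The exact permutation test gave p = 0.0286, the smallest it can give, for wt Ly6Clo against wt Ly6Chi, N2ΔMy Ly6Clo against N2ΔMy Ly6Chi and N2ΔMy against wt Ly6Clo cells (Benjamini-Hochberg adjusted p = 0.0667 over 7 comparisons, two-sided), which does not pass 0.05. The same exact test gave p = 0.0571 and 0.0857 for N2ΔMy against wt Ly6Chi cells after IMQ and after Sham (adjusted p = 0.0999 and 0.12), and p = 0.4286 and 0.8571 for IMQ against Sham in wt and N2ΔMy Ly6Chi cells (adjusted p = 0.5 and 0.8571). *Anxa2* itself was 4933 to 6325 in wt and 7134 to 10333 in N2ΔMy Ly6Clo libraries (0.57 ± 0.13, adjusted p = 0.0288, under the fold threshold).

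**Figure D5:**
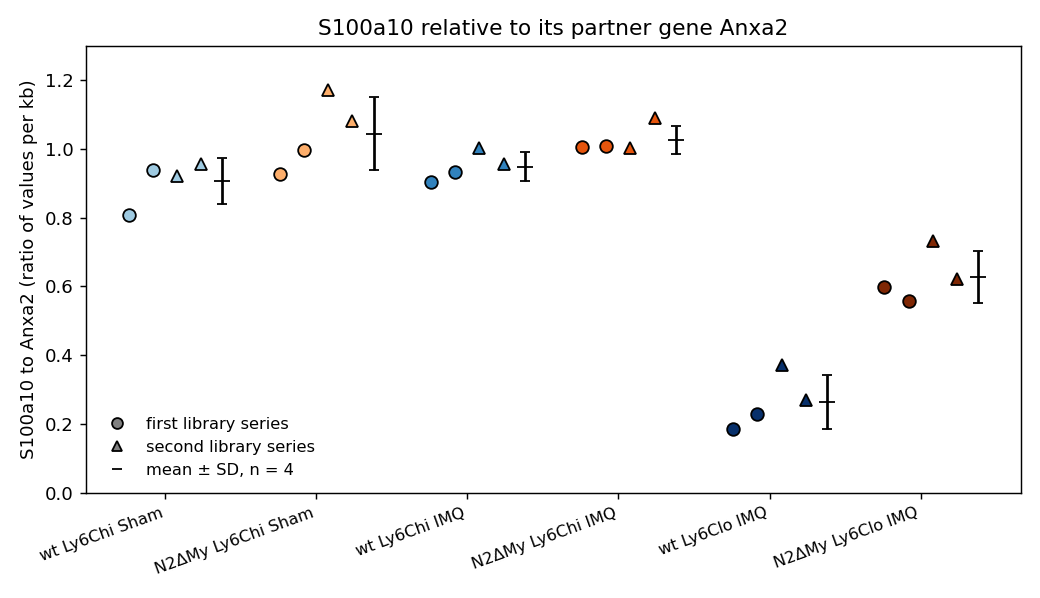
The ratio of *S100a10* to *Anxa2* values per kb is shown for each of the 24 libraries, with circles and triangles for the first and second library series and the mean ± SD of 4 libraries beside them. The Ly6Chi libraries lie between 0.807 and 1.17, the N2ΔMy Ly6Clo libraries between 0.557 and 0.733 and the wt Ly6Clo libraries between 0.186 and 0.371.

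The genes most like each member were found by Pearson r of log2(value + 1) over the 24 libraries, which share groups and library series, and are given as a description. For *S100a8* they were *S100a9* (r = 0.939), *Galnt6* (0.931) and *Lcn2* (0.924), and for *S100a9* they were *Wfdc21* (0.977), *Lcn2* (0.965) and *Lrg1* (0.955). *S100a10* was closest to *Esyt1* (0.965), *Vcan* (0.964) and *Synj2* (0.961), and *S100a6* to *Gpr146* (0.961), *Rpn1* (0.956) and *Fkbp2* (0.95). The closest to *S100a1* were *Slc35c1* (0.962), *Rpn1* (0.956) and *S100a6* (0.946), and to *S100a4* they were *Rpl28* (0.968), *Reep5* (0.966) and *Cd52* (0.963). *S100a11* had *Qars* (0.938), *Sh3bgrl3* (0.9) and *Prelid1* (0.897), and *S100a13* had *Cep19* (0.919), *Lgals1* (0.912) and *Atp5j* (0.91). Once each library series was centred, the genes closest to *S100a4* became *S100a6* (0.959), *S100a10* (0.955) and *Crip1* (0.942). Between members, the lowest r was 0.173, for *S100a9* and *S100a4* of the same cluster. *S100a10* had r = 0.977 with *S100a6* of the other cluster after centring.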

How the data were processed

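RNA was measured in 24 libraries of sorted monocytes, and the labels gave each library its genotype, subset, treatment and replicate number. Per the labels and the methods, libraries came from a stranded total RNA kit (SMARTer Pico), reads were trimmed with Trim Galore 0.4.4 and aligned with STAR 2.5.3a to GRCm38.p6 (GENCODE annotation), and counts were normalized by the authors with DESeq2. The deposited table holds the result as whole numbers, treated here as a score and not as raw counts, so no count model was used. Columns of the authors' own fold changes, standard errors, test statistics and p-values were not used. Depth was inferred from which whole numbers occur in a library (largest error 1.33% on simulated data) and lay between 9521700 and 19760126 reads, and errors are the SD of 4 libraries or the SE of a fit. The controls are called Sham in the labels and untreated in the methods on RNA isolation.

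Comparisons used limma 3.58.1 in R 4.3.3 (lmFit, eBayes with trend) on log2(value + 1), on the 8 libraries compared, 16 for an interaction and 24 for the F-test. Adjusted p-values are Benjamini-Hochberg over 11230 genes. Single values used two-sided exact permutation tests over 70 splits. Tests were checked on simulated data, where 200 of 200 genes changed 4-fold were recovered in the comparison of IMQ with Sham in wt Ly6Chi cells (10453 genes, 12 others called). Same-numbered libraries deviated together in each of the 7 comparisons (r from 0.16 to 0.619, every pair over 0.1), and within the library series by less, with r from -0.116 to 0.0936 for IMQ against Sham and at most 0.263 elsewhere. Since every pair was over 0.1, a fit with the replicate number as a block is given where it changes a call of an S100 gene. Calls of the list genes are given without the block. The labels give the numbers without saying what they share.

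The 8 genes and the gene lists were chosen with earlier results of these data known. All 8 are named, with the 3 genes of highest Pearson r for each and up to 4 called genes per list with the largest change. Beyond that rule *Ahnak* (in N2ΔMy against wt Ly6Clo cells), *Anxa3* (in N2ΔMy Ly6Clo against Ly6Chi cells), *Anxa2*, *Tlr4*, *Ager*, *Cacybp* and single cell type markers were named after their values were seen. The marker lists of B, T, NK and dendritic cells, platelets and erythroid cells were read as well, and beyond the dendritic cell and platelet genes given with the results none of their genes that passed the filter was called. Alternatives were TMM scaling, other filters, the replicate block, a fit with no trend, library series as covariate or alone, other pseudocounts, values under 1.1 set to 1.1, all 24 libraries in 1 fit, and each library left out. One further gene of the Ly6Chi marker list is not reported here. Promoters were read from RefSeq (GRCm38.p6), with 7 of 8 genes matched. Scripts used Python 3.11.15, numpy 2.4.6, pandas 2.3.3 and matplotlib 3.10.9.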

Additional observations from a re-analysis of the deposited data

Results flagged for a closer look

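In wt Ly6Chi IMQ cells 1 library stood far from the other 3 for both calprotectin genes. *S100a8* was 3257 in replicate 4 against 545 to 930 in the others, and *S100a9* was 1651 against 499 to 685. Replicate 4 also had the highest neutrophil list sum of its group, 12906 against 9056 to 9739, and its part in the 2 values was not tested. Both calls against Sham held without it. *S100a10* was 2106 in replicate 2 of wt Ly6Chi Sham, against 1757 to 1768 in the other 3. *S100a9* was 7 in 1 N2ΔMy Ly6Chi Sham library and 0 in the other 3. Of 48 groups of 4 values looked at, 4 held such a library. The cut-off flags about 1 in 20 for independent, normally distributed values. These values need not be so, and *S100a8* and *S100a9* share 1 flagged library, so no excess over chance is claimed.

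The genotype difference of *S100a10* differed between the subsets of IMQ-treated mice, with an interaction of 1.51 on the log2 scale (limma adjusted p = 0.00165), and its values in Ly6Chi and Ly6Clo cells are given with that result.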

How the results depend on the processing

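No direction reversed among the called results. Of 119 counts of S100 genes under settings other than left-out libraries, 111 stayed within 1.5 times the reported count. Without a filter on low values 3 instead of 6 genes were called after IMQ in wt Ly6Chi cells (2.78% instead of 9.49% of all genes). In N2ΔMy against wt Ly6Clo cells 1 instead of 2 was called (0.752% instead of 4.78%). The replicate block and the library series as covariate each gave 4 in the latter (8.36% and 7.39% of all genes). In the interaction of genotype and subset they gave 3 instead of 1 (2.41% and 1.87% instead of 1.03%). That interaction had 2 in the first library series alone (1.19%) and 0 in the second (0.16%). Leaving out 1 library gave 5 to 7 and 3 to 6 genes after IMQ in wt and N2ΔMy Ly6Chi cells, 3 being without N2ΔMy Ly6Chi IMQ replicate 4, 7 to 8 and 5 to 6 for Ly6Clo against Ly6Chi, and 2 and 1 in every fit for N2ΔMy against wt Ly6Clo cells and the interaction of genotype and subset. The block changed no other call of the 8 S100 genes than those given with the results. The cause was not tested. Each series has 2 libraries per group, so its fits rest on fewer samples. Values under about 50 are few reads, which limits *S100a8* and *S100a9* in Sham and in several Ly6Clo libraries of both genotypes, and *S100a1* in wt Ly6Clo cells.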
